A study of Mus musculus with 6 samples.

Results

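The genes described here are 9 listed as visceral endoderm transport genes. The receptor genes Cubn, Lrp2 and Amn and the carrier genes Apoe, Apoa1, Afp and Ttr serve to take up and carry lipids, vitamins and hormones. Cited1, a transcriptional co-regulator gene, and Srgn, a secretory granule gene, are in the list as well. All 9 were taken by gene symbol from the array's annotation. Each of the 9 has 1 probe set with a single symbol, among 35557 probe sets and 19938 singly named genes on the array. The study compared undifferentiated mouse embryonic stem (ES) cells on 6 arrays. The tested cells were the Hira-/- clone Cl34 (Hira-null, n = 3 arrays) and the comparison cells were its WT parental line w9.5 (n = 3 arrays). HIRA is a chaperone that places the histone variant H3.3 on DNA outside replication. Both lines grew in medium with fetal calf serum and ESGRO, a leukaemia inhibitory factor preparation, and were collected at differing confluence that no label ties to an array. The Hira-null group is a single clone, so loss of Hira and other differences between the lines cannot be told apart. Replicates are labelled as biological, with nothing further on their cultures, so the p-values weigh array-to-array spread, part of which may be technical.

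Visceral endoderm is the absorptive epithelium that surrounds the early mouse embryo and later lines the yolk sac. Its apical surface carries cubilin and megalin, a pair of very large receptors that capture proteins and lipoproteins from maternal fluids for lysosomal breakdown. Cubilin has no membrane-spanning segment and reaches the cell surface only with amnionless, while megalin, of the low-density lipoprotein receptor family, helps to draw it into clathrin-coated pits. The same cells secrete apolipoproteins, alpha-fetoprotein and transthyretin before the liver takes over this task. Cultures of undifferentiated ES cells usually hold some cells that turn on endoderm genes.

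The promoters of the 3 receptor genes and of Apoe are shown because the receptors act as a complex and yet differed in how they stood between the lines, and because Apoe is the carrier with the largest difference. The letters run 5′ to 3′ on the gene's strand, from 250 bases before to 50 bases after the start of the RefSeq gene on build GRCm38.p6, with each CG dinucleotide in capitals. The windows are chr2:13491827-13492126 (minus strand) for Cubn, chr2:69585980-69586279 (minus strand) for Lrp2, chr12:111270846-111271145 (plus strand) for Amn and chr7:19699139-19699438 (minus strand) for the first of 3 listed Apoe starts.
Cubn: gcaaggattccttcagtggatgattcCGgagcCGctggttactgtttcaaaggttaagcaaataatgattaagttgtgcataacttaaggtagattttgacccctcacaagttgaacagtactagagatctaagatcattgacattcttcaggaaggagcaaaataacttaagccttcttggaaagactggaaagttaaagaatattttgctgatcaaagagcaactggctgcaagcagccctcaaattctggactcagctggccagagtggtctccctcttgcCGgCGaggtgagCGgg
Lrp2: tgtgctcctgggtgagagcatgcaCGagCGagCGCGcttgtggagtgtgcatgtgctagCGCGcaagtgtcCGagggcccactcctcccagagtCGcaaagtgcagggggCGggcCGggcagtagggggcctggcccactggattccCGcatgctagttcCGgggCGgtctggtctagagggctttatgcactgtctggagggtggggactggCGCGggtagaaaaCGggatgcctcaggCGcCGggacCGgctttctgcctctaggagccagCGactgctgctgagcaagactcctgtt
Amn: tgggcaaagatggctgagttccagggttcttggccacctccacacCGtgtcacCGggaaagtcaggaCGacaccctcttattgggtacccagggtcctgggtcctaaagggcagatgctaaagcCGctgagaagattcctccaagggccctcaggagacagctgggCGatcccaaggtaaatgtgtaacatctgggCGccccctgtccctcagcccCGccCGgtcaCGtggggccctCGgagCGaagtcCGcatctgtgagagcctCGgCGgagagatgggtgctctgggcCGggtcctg
Apoe: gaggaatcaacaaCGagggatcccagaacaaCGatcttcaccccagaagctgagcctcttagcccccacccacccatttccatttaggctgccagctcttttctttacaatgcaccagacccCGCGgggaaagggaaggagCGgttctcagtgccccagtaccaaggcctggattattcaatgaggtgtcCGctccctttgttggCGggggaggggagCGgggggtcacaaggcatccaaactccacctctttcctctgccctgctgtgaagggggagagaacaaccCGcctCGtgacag

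The Cubn window is the least GC-rich of the 4, with 44.3% G and C and 5 CG dinucleotides, against medians of 52.7% and 7 over 32851 mouse promoter windows of the same length. Lrp2 has 65.0% and 20, Amn 62.3% and 15, and Apoe 57.7% and 10. RefSeq gave windows for 8 of the 9 genes, 13 windows in all. These were searched on both strands for the GATA factor motif GATAA. The same was done for the HNF1 half-site GTTAAT. A nuclear receptor half-site (AGGTCA), a forkhead motif (TGTTTAC) and the TATA box (TATAAA) completed the search. None of the 5 is present in the 4 windows shown. Among the other windows, GTTAAT, found in 7.1% of all windows, is in that of Afp and in that of the third Apoe start, which also has TGTTTAC (3.65%). GATAA, found in 25.4%, is in that of Apoa1 and in that of the third Cited1 start, which also has AGGTCA (16.3%). TATAAA (13.6%) is in the windows of Afp, Srgn, the second Apoe start and the first and the second Cited1 start. These matches describe the letters only.

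Values are deposited log2 expression values, and differences are log2 fold changes, Hira-null minus WT, with the SD over 3 arrays or the standard error (SE) of the limma fit. Array medians were 4.93 to 5.02. The targeted gene, Hira, read 7.40, 7.05 and 6.81 in Hira-null arrays and 7.49, 7.86 and 7.83 in WT arrays, without overlap but short of the threshold (limma adjusted p = 0.352), and the deleted part of the gene is not stated. On the first principal component, 41.7% of the variance, Hira-null replicate 3 stood at 65.6 and the other arrays at -32.0 to 1.95. On the second, 26.8%, replicates 1, 2 and 3 stood at 42.7, 11.1 and 2.19 in Hira-null and at -40.7, -5.12 and -10.2 in WT. The lines thus lay on opposite sides of 0, with replicate 1 of each farthest out. Where leaving out Hira-null replicate 3 or WT replicate 1 turned the sign of a named gene's difference of at least 0.4, or moved it by over 1.5 times, the value without that array is given as well. Among all tested genes of the 9, the lists below, the neighbours and the genes most like Cubn and Apoe, 26 of 45 with such a difference turned or moved that far, and 67 of 83 with a smaller one.

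Of the 9 genes, 7 exceeded the filter level of 3.78 on all 6 arrays and were tested, while Afp and Ttr lay below it on all 6. In the limma fit over 25142 probe sets, 0 of the 7 passed an adjusted p of 0.05, where the background was 0.00398% of probe sets. At an unadjusted p under 0.05 there were 2 of 7, Cubn lower and Apoe higher, against 10.1% of all probe sets. The values of the lines did not overlap for 4 of the 7, Lrp2 and Apoe above WT and Cubn and Apoa1 below it, against 15.3% of all probe sets. The median difference of the 7 was 0.00, as it was over all probe sets tested. The genes were chosen with these results known, so the counts are descriptions.

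Cubn, the cubilin gene, had the largest difference of the 9. It read 5.92, 6.14 and 5.75 in Hira-null arrays, against 7.93, 7.21 and 7.12 in WT arrays. Every Hira-null array lay at least 0.98 below every WT array. The means were 5.94 ± 0.20 in Hira-null and 7.42 ± 0.44 in WT arrays (SD, n = 3 each), a log2 fold change of -1.48 (SE 0.24, 95% interval -2.05 to -0.92), or 2.80-fold lower. This did not pass over all probe sets (limma adjusted p = 0.220, unadjusted p = 0.000441), and an exact permutation test (two-sided) stopped at p = 0.1, the lowest value that groups of 3 can reach. Over 17 alternative settings the difference lay between -1.63 and -1.14 and the adjusted p between 0.112 and 0.604. Settings that change only the probe sets tested, the variance model, the block or the averaging of probe sets cannot move this difference. The value nearest to 0 came from the 4 arrays left when Hira-null replicate 3 and WT replicate 1 were dropped together (SE 0.14).

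Lrp2, the megalin gene, did not follow Cubn. It read 7.57, 7.70 and 8.37 in Hira-null arrays and 7.46, 7.40 and 7.52 in WT arrays. The Hira-null values were all higher, by as little as 0.05, and replicate 3 stood above the rest. The log2 fold change was 0.42 (SE 0.22, 95% interval -0.10 to 0.94, limma adjusted p = 0.590). Without Hira-null replicate 3 it was 0.18 (adjusted p = 0.701).

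Amn, which encodes amnionless, read 5.44, 5.86 and 5.94 in Hira-null arrays and 5.77, 5.74 and 5.73 in WT arrays. The WT values fell inside the wider Hira-null range. Both means were 5.75, with an SD of 0.27 in Hira-null and 0.02 in WT arrays, and the difference was 0.00 (95% interval -0.38 to 0.38, limma adjusted p = 1). The interval leaves room for changes of up to 1.30-fold either way.

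The unequal standing of the receptor genes can be read within each array, where the array's overall level cancels. The log2 ratio of Cubn to Lrp2 was -1.65, -1.56 and -2.62 in Hira-null arrays and 0.47, -0.19 and -0.40 in WT arrays, a difference of -1.90. The ratio of Cubn to Amn was 0.48, 0.28 and -0.19 in Hira-null arrays and 2.16, 1.47 and 1.39 in WT arrays, a difference of -1.48. In both pairs the lines did not overlap, which follows from the values of the single genes given above and is no separate result. Of 3 such pairs computed, chosen after their values were seen, each reached p = 0.1 in the exact permutation test, the smallest possible, and adjusted p = 0.1. The single genes' values fixed this outcome in advance, so these p-values add no support. Levels of different probe sets are not comparable, so only the shift of a ratio between arrays has a meaning.

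**Figure D1:**
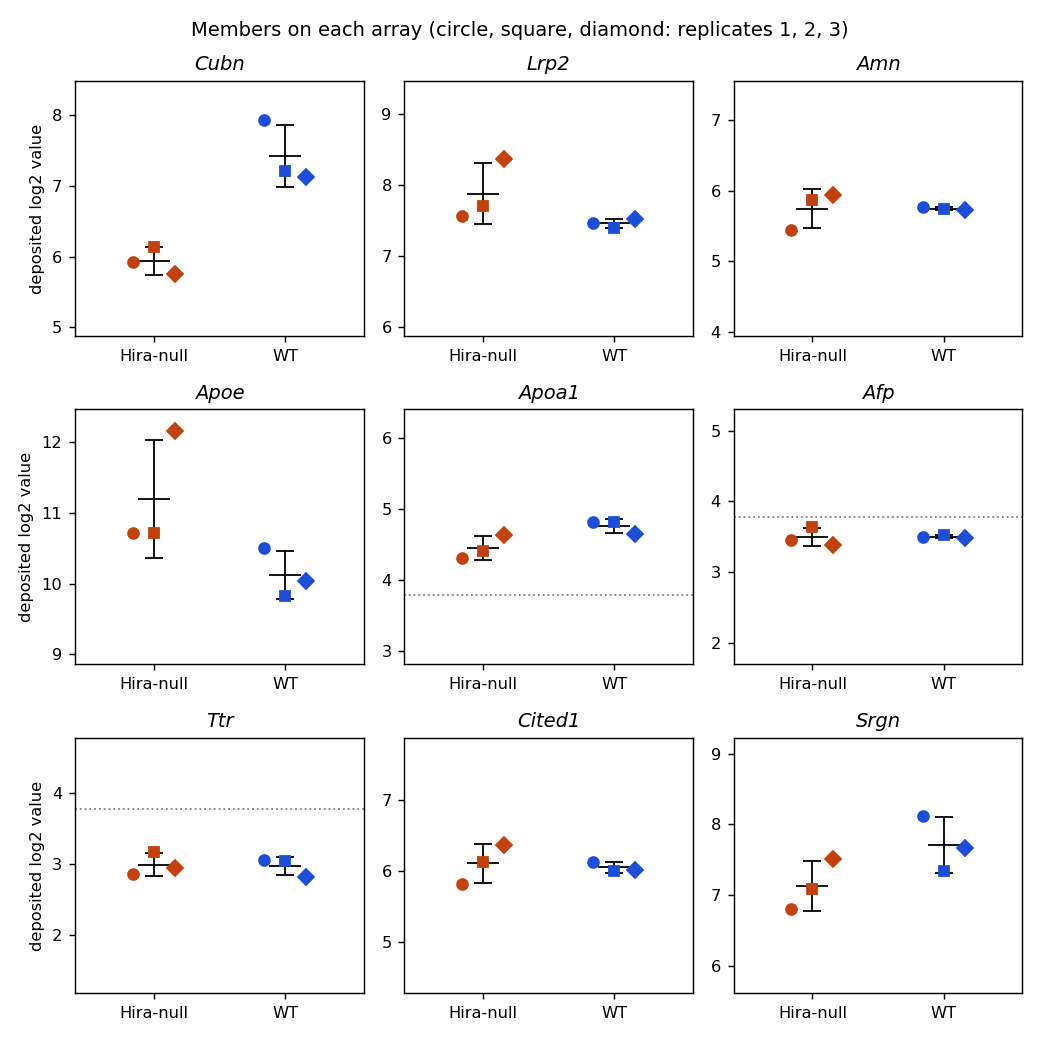
Deposited log2 values of the 9 genes on each array, Hira-null left and WT right, with bars for the mean and SD (n = 3) and an equal vertical span in every panel. Cubn is the gene whose groups are farthest apart, Hira-null replicate 3 is the highest array for Lrp2, Amn, Apoe and Cited1, and Afp and Ttr lie under the dotted filter level of 3.78.

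Apoe encodes apolipoprotein E, which carries lipids in lipoproteins and binds receptors of the megalin family. It read 10.71, 10.72 and 12.16 in Hira-null arrays and 10.50, 9.83 and 10.03 in WT arrays. All Hira-null values lay above WT, the closest by 0.21, and replicate 3 stood at least 1.44 above the other Hira-null arrays. The means were 11.20 ± 0.83 in Hira-null and 10.12 ± 0.34 in WT arrays (SD, n = 3 each), a log2 fold change of 1.08 (SE 0.41, 95% interval 0.11 to 2.04), or 2.11-fold higher. It did not pass (limma adjusted p = 0.440, unadjusted p = 0.0339). Without Hira-null replicate 3 the difference was 0.60 (SE 0.21, adjusted p = 0.460), and with WT replicate 1 dropped as well it was 0.79 (SE 0.13, adjusted p = 0.352).

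Apoa1 encodes the main protein of high-density lipoprotein, a ligand of cubilin. It read 4.30, 4.41 and 4.63 in Hira-null arrays and 4.82, 4.82 and 4.64 in WT arrays. The lines are separated by 0.01, which is the rounding step of the deposited values. The log2 fold change was -0.31 (SE 0.14, 95% interval -0.64 to 0.02, limma adjusted p = 0.508). The log2 ratio of Apoe to Apoa1 was 6.41, 6.31 and 7.53 in Hira-null arrays and 5.68, 5.01 and 5.39 in WT arrays. Its lack of overlap between the lines follows from the values of both genes and is no separate result.

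Afp, the gene of the main carrier protein of fetal plasma, read 3.45, 3.64 and 3.39 in Hira-null arrays and 3.50, 3.52 and 3.48 in WT arrays. Ttr, whose product carries thyroid hormone and retinol-binding protein, read 2.86, 3.17 and 2.94 in Hira-null arrays and 3.06, 3.04 and 2.82 in WT arrays. Both genes overlapped between the lines, with mean differences of -0.01 and 0.02, and every value lay under the filter level. These classic secreted products of visceral endoderm thus gave no value above 3.78 in either line.

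Cited1, a transcriptional co-regulator that does not bind DNA itself, read 5.81, 6.13 and 6.37 in Hira-null arrays and 6.13, 6.0 and 6.01 in WT arrays. The lines overlapped, and the log2 fold change was 0.06 (SE 0.17, 95% interval -0.34 to 0.45, limma adjusted p = 0.951). Srgn encodes serglycin, a proteoglycan core protein of secretory granules. It read 6.80, 7.09 and 7.51 in Hira-null arrays and 8.12, 7.34 and 7.67 in WT arrays, with Hira-null replicate 3 above WT replicate 2. Its log2 fold change was -0.58 (SE 0.26, 95% interval -1.18 to 0.03, limma adjusted p = 0.508), and -0.37 without WT replicate 1.

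**Figure D2:**
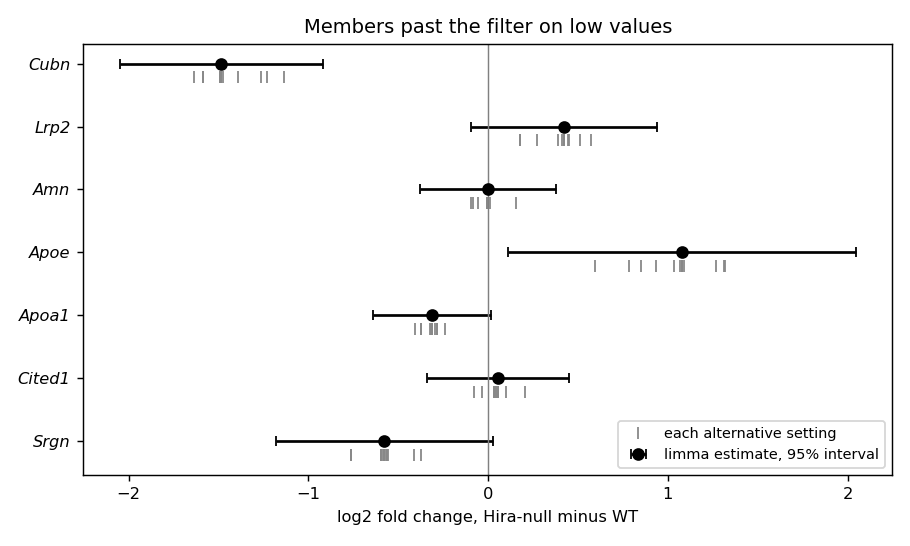
Log2 fold changes (Hira-null minus WT) of the 7 genes tested, as limma estimates with 95% intervals (points and bars) and as the values under each alternative setting (ticks). The intervals of Cubn and Apoe leave out 0, and the ticks of Apoe run from 0.60 to 1.32.

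RNA was measured for 16 of 19 listed genes of proteins that serve cubilin and megalin and of related receptors. None of the 16 passed with limma, as for 0% of all genes taken with 1 probe set each. At an unadjusted p under 0.05 there were 1 higher and 2 lower, against 4.17% and 6.29% of all 15199 genes (10.5% in both directions together), and the median difference was 0.01, against -0.01 over all genes. Dab2, the adaptor that links megalin to clathrin, stood nearest to Cubn in size. It read 6.02, 6.43 and 6.66 in Hira-null arrays and 7.94, 6.79 and 6.86 in WT arrays, without overlap, with a difference of -0.83 (SE 0.33, adjusted p = 0.472). WT replicate 1 stood above the other WT arrays, and without it the difference was -0.455, while Cubn stood at -1.23. The clathrin adaptor subunit gene Ap2b1, on chromosome 11, differed by -0.41 (adjusted p = 0.410). Genes of chromosomes 8 and 11 had medians of -0.27 and -0.24 in this comparison, and none of the 9 genes described lies there. The 3 genes of the list that do, Ap2b1, the clathrin heavy chain gene Cltc (-0.27) and the adaptor gene Gipc1 (-0.17), named after their values were seen, are 3 of its 4 genes lower without overlap, the other being Dab2. Over all genes 9.55% were lower without overlap, against 35.5% of those on chromosome 8 and 33.2% of those on chromosome 11. The multiligand receptor gene Lrp1 differed by 0.76 (adjusted p = 0.464), or 0.505 without Hira-null replicate 3, and the adaptor subunit gene Ap2m1 by 0.41 (adjusted p = 0.508). Lrpap1, the chaperone of megalin, differed by 0.05 (adjusted p = 0.968). Clcn5, an endosomal chloride-proton exchanger, differed by 0.41 (adjusted p = 0.826) and read 6.86, 6.57 and 8.18 in Hira-null arrays against 7.12, 6.56 and 6.71 in WT arrays. Without Hira-null replicate 3 its difference was -0.08.

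Hira-null replicate 3 held the highest value for 8 of these 16 genes and for 4 of the 9 described, against 25.0% of all genes. Lrp2 and Apoe belong to these 4, while Cubn was lowest on that array.

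Of 18 listed genes of lipoproteins and their assembly, 14 were tested and 0 passed with limma. There was 1 gene at an unadjusted p under 0.05, against 10.5% of all genes, and the median difference was 0.00. That gene was Apoc1, an apolipoprotein gene next to Apoe on chromosome 7. It read 6.88, 6.72 and 7.26 in Hira-null arrays and 6.18, 6.15 and 6.22 in WT arrays. Every Hira-null value was at least 0.50 above WT, and the log2 fold change was 0.77 (SE 0.16, adjusted p = 0.234), or 1.71-fold higher. Apoa2, of high-density lipoprotein, differed by -0.25 (adjusted p = 0.576) without overlap between the lines. The cholesterol exporter gene Abca1 stood at -0.21 (adjusted p = 0.686), the triglyceride synthesis gene Dgat2 at 0.34 (adjusted p = 0.730) and Apob, the core protein gene of low-density lipoprotein, at 0.04 (adjusted p = 0.955).

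Among 18 listed genes of plasma carrier and secreted proteins, 9 were tested and 0 passed with limma. None had an unadjusted p under 0.05, against 10.5% of all genes, and the median difference was -0.01. Alb, Serpinc1, Orm1 and Cp lay below the filter level on every array, as Afp and Ttr did. Alb, the albumin gene, averaged 3.0 ± 0.07 in Hira-null and 2.95 ± 0.11 in WT arrays (SD, n = 3 each). The thrombin gene F2 stood at -0.23 (adjusted p = 0.598), the vitronectin gene Vtn at 0.23 (adjusted p = 0.674) and the haem carrier gene Hpx at 0.13 (adjusted p = 0.852). Rbp4, of retinol transport, stood at -0.26 (adjusted p = 0.743) and the transferrin gene Trf at -0.05 (adjusted p = 0.974).

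**Figure D3:**
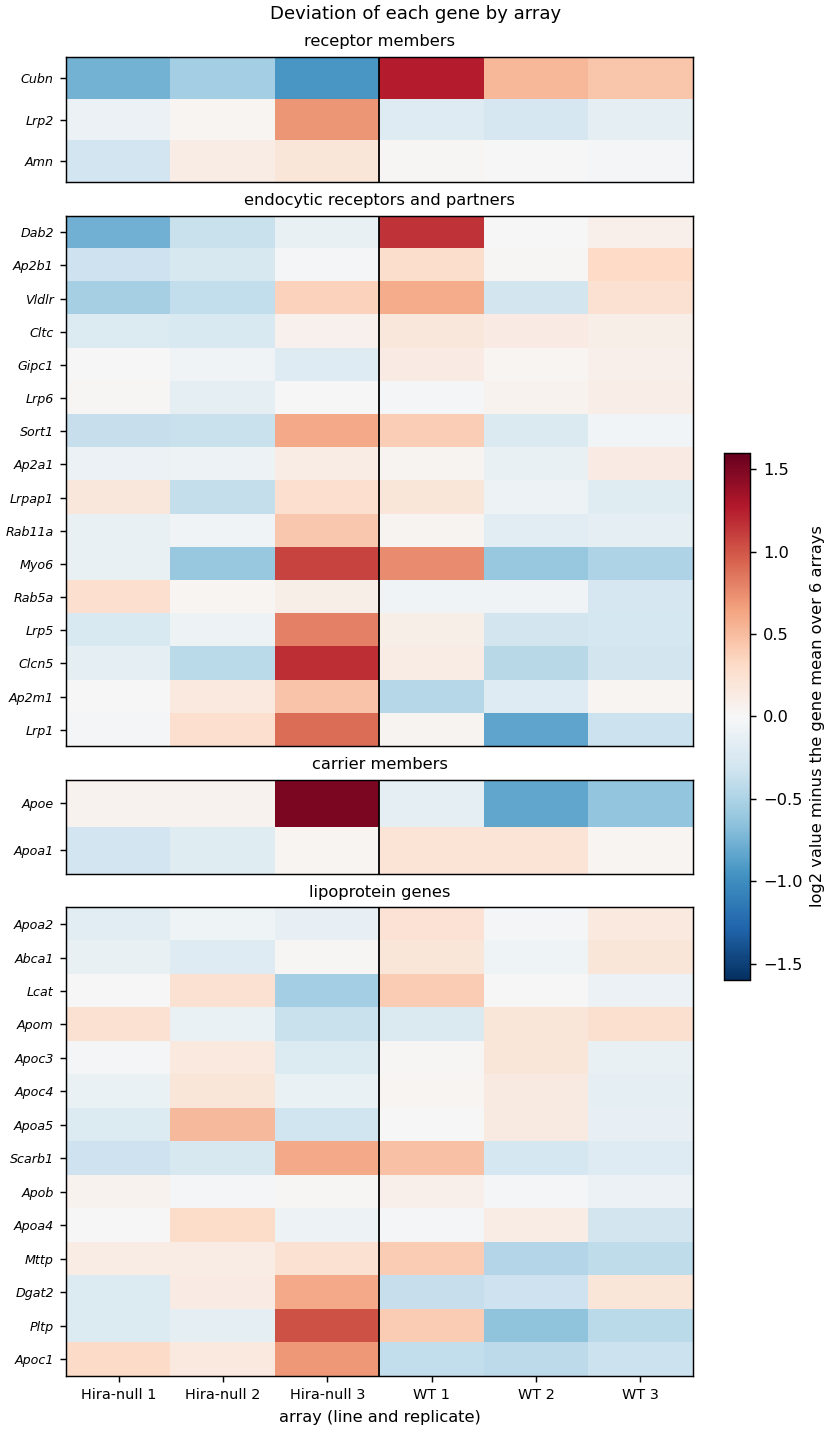
Each gene's log2 value minus its mean over the 6 arrays (colour, red above and blue below the mean), with the 3 Hira-null arrays left of the line and the 3 WT arrays right of it. Cubn is below its mean in all Hira-null arrays, whereas Lrp2, Apoe and 8 of the 16 endocytic partner genes are highest in Hira-null replicate 3.

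Marker lists show which cells the RNA could come from. In RNA from whole cultures, fewer cells of a type and less RNA per cell cannot be told apart. Of 13 pluripotency markers all were tested, 0 passed with limma and 3 had an unadjusted p under 0.05, against 10.5% of all genes. These were the transcription factor genes Klf4, at 0.41, and Tfcp2l1, at 0.61, higher, and Klf2, at -0.52, lower. Klf2 lies on chromosome 8, whose genes had a median difference of -0.27, with 35.5% lower without overlap. Pou5f1 (0.27), Nanog (0.05) and Sox2 (-0.11) did not pass, with adjusted p of 0.685, 0.953 and 0.936. The summed linear level of this list was 16016 to 20963 in Hira-null and 17415 to 18289 in WT arrays.

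Of 19 visceral endoderm markers, which include Dab2, 15 were tested, 0 passed with limma and 4 had an unadjusted p under 0.05 (10.5% of all genes), 3 of them lower (6.29% of all genes). The median difference was -0.21, and the summed linear level was 551 to 717 in Hira-null and 665 to 870 in WT arrays. Gata6, a transcription factor gene of primitive endoderm, read 6.06, 5.85 and 6.14 in Hira-null arrays and 6.91, 6.36 and 6.42 in WT arrays. The lines did not overlap, and the difference was -0.55 (SE 0.18, adjusted p = 0.394). The protease gene Ctsh differed by -0.62 (adjusted p = 0.410), while the dipeptidyl peptidase gene Dpp4 stood at 0.66 (adjusted p = 0.399), or 0.415 without WT replicate 1. The transcription factor genes Hnf4a (-0.25), Foxa2 (0.02), Gata4 (-0.18) and Sox17 (-0.23) had adjusted p of 0.753, 0.983, 0.892 and 0.668, and all 4 overlapped between the lines. None of the 17 markers on the array lay below the filter level on every array.

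Of 16 parietal endoderm markers all were tested, 0 passed with limma, 2 had an unadjusted p under 0.05 (1 higher and 1 lower, against 10.5% of all genes), the median difference was -0.29, and the summed level was 2715 to 5202 in Hira-null and 3657 to 5871 in WT arrays. The laminin gene Lama1 stood at -0.59 (adjusted p = 0.371), the basement membrane gene Nid1 at 0.56 (adjusted p = 0.388), Lamc1 at -0.35 (adjusted p = 0.538) and Col4a1 at -0.51 (adjusted p = 0.631). Col4a1, on chromosome 8, stood at -0.78 without Hira-null replicate 3 and at -0.31 without WT replicate 1. WT replicate 1 held the highest value for 10 of these 16 genes and for 8 of the 15 visceral endoderm genes, against 19.0% of all genes. It was also the highest array for Cubn, Srgn and Dab2. Without that array the list medians were -0.11 for visceral and -0.13 for parietal endoderm, and Cubn stood at -1.23. The part of endoderm-like cells in the Cubn difference was not tested.

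Fibroblast markers were tested for 8 of 13 listed genes. Their median difference was -0.44 and their summed level 1059 to 1534 in Hira-null and 1343 to 2796 in WT arrays, with Postn, Lum, Dcn and S100a4 below the filter level on every array. WT replicate 1 held the highest value for 5 of these 8 genes, and without it the median was -0.295. Lowest in p were Thy1 (0.76), Col1a2 (-0.72), Vim (-0.61) and Twist2 (-0.40), with adjusted p of 0.285 to 0.539. Without WT replicate 1, Col1a2 stood at -0.345 and Vim at -0.36. Apoe and Srgn are also active in macrophages and other blood cells. Of 12 markers of these cells, 5 were tested, the median difference was -0.01, and Ptprc, Lyz2, Adgre1 and Cd53 lay below the filter level on every array. The lysosomal gene Cd68, which many cells use, differed by 0.50 (adjusted p = 0.694, with 0.30 without Hira-null replicate 3 and 0.82 without WT replicate 1), Gata1 by -0.23, Tyrobp by 0.15 and Cd14 by -0.20. Trophoblast markers, 7 of 11 tested, had a median of 0.04, with Eomes at 0.38, Cdx2 at 0.05, Tfap2c at -0.05 and Gata3 at -0.05. In these last 3 lists 0 genes passed with limma, and 3, 0 and 0 had an unadjusted p under 0.05, against 10.5% of all genes.

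The genes whose values over the 6 arrays were most like those of Cubn were sought among 1636 genes with an SD at least 50% of its own. Pearson's r rounded to 0.98 for each of the 5 nearest: Slc25a4, a mitochondrial ADP/ATP carrier gene (-0.75), Lima1, an actin-binding protein gene (-1.17), Mfsd13a (-1.17), the pipecolate oxidase gene Pipox (-0.77) and Slain1, a microtubule-associated protein gene (-0.78). All 5 were lower in each Hira-null array than in any WT array, and none passed (limma adjusted p of 0.220 to 0.234). Slc25a4 lies on chromosome 8 and Pipox on chromosome 11, while Lima1, Mfsd13a and Slain1 lie elsewhere. On chromosomes 8 and 11, 35.5% and 33.2% of genes were lower without overlap, against 9.55% of all genes. Those most like Apoe among 1937 genes were Cds1, of phospholipid synthesis (r = 0.999, difference 0.93), the ubiquitin ligase adaptor gene Fem1b (r = 0.997, 0.60), the germ cell transcription factor gene Taf7l (r = 0.994, 1.89), the glutathione transferase gene Gstt2 (r = 0.993, 1.14) and Perp, a p53 target and desmosome gene (r = 0.993, 0.94). Each had its highest value in Hira-null replicate 3, as Apoe did, and none passed (adjusted p of 0.371 to 0.488). Without that array the differences were 0.54 for Cds1, 0.34 for Fem1b, 1.16 for Taf7l, 0.60 for Gstt2 and 0.515 for Perp. All share the same 6 arrays, so these correlations describe likeness only. Genes picked by likeness largely repeat the pattern of Cubn or Apoe by that choice. The lack of overlap and the shared highest array are therefore no separate result.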

How the data were processed

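Total RNA was extracted with Trizol, labelled with biotin and hybridised to Affymetrix Mouse Gene 1.0 ST arrays, per the labels' protocols. The table deposited by the authors holds log2 values, 1.14 to 14.03, for 35557 probe sets, and GCRMA is named in the submitters' processing notes without a version. Their range gave the log2 scale, and the genome build behind them is not given in the sources used here. Medians agree across arrays, so the values were used as normalized, which hides any shift common to most genes. Raw signals were not analysed here. No 2 columns were identical, and arrays correlated at 0.969 to 0.990.

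Symbols of 21789 probe sets with 1 gene symbol were updated through Entrez identifiers with a GRCm38.p6 gene table (21698 matched), which also gave chromosomes and gene order. Another 1621 probe sets carry several symbols and 12147 are unnamed here. Probe sets above 3.78, the 30th percentile, on at least 3 arrays were kept (25142). Hira-null minus WT was fitted with limma 3.58.1 in R 4.3.3 (lmFit, eBayes, Benjamini-Hochberg over all kept, threshold 0.05). The number of arrays limits the precision (median SE 0.17). On simulated data with 25142 probe sets, 33.5% of 200 changes of 1 and 84.5% of 200 changes of 2 on the log2 scale were called. The simulated probe sets varied independently with normal noise, without the array-wide differences seen on the principal components. Recovery in the real arrays may therefore differ. In lists, the probe set of highest mean stood for its gene, and summed levels add the antilogged values of the genes tested. All 9 genes, Hira, 3 pluripotency genes, up to 4 genes per list with the smallest p, 13 fixed endocytic, carrier and endoderm genes and the 5 genes most like Cubn and Apoe were named. Members and lists were chosen with earlier results of these data known. Alternatives were 2 filters, 2 normalizations, trend and robust settings, arrayWeights, a replicate block, leaving out arrays, leaving out chromosomes 8 and 11, and averaging probe sets of a gene.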

Additional observations from a re-analysis of the deposited data

How the results depend on the processing

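Among the 7 genes tested, 0 were called under every alternative run, and the sign of Cubn, Lrp2, Apoe, Apoa1 and Srgn was the same wherever they were tested (Apoa1 fell below the stricter filter). Only settings that changed the values, the weights or the arrays used could move these differences. Amn, at 0 in the reported setting, lay between -0.10 and 0.15. Cited1 ranged from -0.0767 to 0.203 when 1 array was left out. It turned to -0.0767 without Hira-null replicate 3 and to -0.035 (limma, adjusted p = 0.974) on the 4 arrays left when WT replicate 1 was dropped as well. The number of genes without overlap between the lines was 3 to 5 over the alternatives. A count of 5 arose only with arrays left out, where a lack of overlap is easier to reach. The share of 15.3% of all probe sets holds for the full set of arrays and was not computed for the alternatives, so this range is a description. Over all probe sets, the count called was 1 in the reported setting, 2 with the stricter filter at the 50th percentile (4.99) and with median centring, 5 with arrayWeights, and 0 on those 4 arrays. It was 0 to 41 when 1 array was left out, with 41 only without Hira-null replicate 2. The stricter filter moved the list medians, because fewer genes were tested, to 0.32 for lipoproteins, -0.14 for secreted carriers and 0.50 for macrophage and blood markers. The last value is that of Cd68 alone, the only gene of its list still tested. The secreted carrier median was -0.094 with arrayWeights and -0.125 on those 4 arrays, for which the cause was not tested. When 1 array was left out, list medians ranged from -0.070 to 0.0683 for secreted carriers, -0.258 to -0.0783 for visceral endoderm, -0.0383 to 0.217 for pluripotency and -0.148 to 0.195 for trophoblast. With the replicate number as a block, 0 probe sets were called, and Cubn stood at adjusted p = 0.493 (SE 0.22). Deviations of same-numbered arrays correlated at -0.34, 0.17 and -0.10, which shows no sign of pairing by number. With 3 arrays per line these values cannot exclude pairing, and the labels do not state any. Array centring and quantile normalization shifted the median of all probe sets by less than 0.01. Genes read near the filter level, such as Apoa1 and Apob, have little room to be seen lower.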

Other observations

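The genes beside Cubn and Apoe were looked at after the values of both were known, as the 3 nearest tested genes on each side in the gene table. Around Cubn on chromosome 2, the nearest gene on each side stood above 0: Rsu1, which encodes a suppressor of Ras signalling, read 8.81, 8.68 and 9.13 in Hira-null arrays and 8.13, 8.53 and 8.54 in WT arrays (difference 0.47, limma adjusted p = 0.442), and the RNA methyltransferase gene Trdmt1 differed by 0.23 (adjusted p = 0.728). Farther out, Mindy3 differed by 0.28, Pter by -0.10 and St8sia6 by -0.40 (-0.22 without Hira-null replicate 3). The intermediate filament gene Vim, also named among the fibroblast markers, read 9.5, 9.45 and 9.34 in Hira-null arrays and 10.55, 9.71 and 9.87 in WT arrays, a difference of -0.61 (adjusted p = 0.424), or -0.36 without WT replicate 1. Cubn had the largest difference of these 7 genes.

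Around Apoe on chromosome 7, Apoc1 (0.77) lay without overlap above WT. Apoc4 (-0.02), Clptm1 (0.03), Tomm40 (-0.07), Nectin2 (0.27) and Bcam (0.52, or 0.26 without Hira-null replicate 3) overlapped between the lines. Tomm40, of the mitochondrial import channel and the nearest gene on the other side of Apoe, read 9.38, 9.49 and 8.62 in Hira-null arrays and 8.85, 9.35 and 9.51 in WT arrays, so it was lowest on the array where Apoe was highest. None of the 12 neighbours passed over all probe sets with limma, and 3 of them had an unadjusted p under 0.05 (Rsu1, Vim and Apoc1), against 10.5% of all genes.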
